A study of Mus musculus with 12 samples.

Results

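The effect of deleting Sirt3 in beta cells was followed across both diets at once: 6 libraries from islets of Sirt3 knockout mice (KO) were set against 6 from wild type mice (WT), which is all 12 libraries of the series, with diet as an additive term. Of 54532 genes listed, 29339 had a count and 16076 were expressed highly enough to test. The animals were male C57BL/6 mice labelled as 40 weeks old, and every library was made from total RNA of whole pancreatic islets, released with collagenase P and collected from a density gradient. The groups were STD KO and HFD KO (beta cell selective Sirt3 knockout mice given standard food of 6.2% fat, or food in which fat supplied 60% of the calories) and STD WT and HFD WT (wild type mice on the same foods), with 3 libraries in each. High fat feeding lasted 36 weeks. It followed 6 weeks of standard food in HFD KO 1 and HFD KO 3, 5 weeks in HFD KO 2 and 4 weeks in the HFD WT animals, so genotype and this earlier period differ together in the high fat groups. Which Cre driver was used, which exons were deleted and whether the WT animals carried Cre is not stated in the sources read, so, unless they did, a Cre transgene and the loss of Sirt3 cannot be told apart in any comparison of KO with WT. No label ties each library to its own animal, so a p-value here reflects spread among libraries, which may be technical.

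Sirt3 encodes a deacetylase of the mitochondrial matrix that uses NAD and acts on enzymes of fatty acid oxidation, the respiratory chain and antioxidant defence. Beta cells couple mitochondrial ATP production to closure of potassium channels, calcium entry and release of insulin granules. During pregnancy, placental lactogens and prolactin act on beta cells through the prolactin receptor and the transcription factor STAT5, and raise, among others, the genes for tryptophan hydroxylase, the enzyme that starts serotonin synthesis.

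Totals ranged from 16037709 to 20864920 counts per library, with 20386 to 22360 genes seen. Levels below are CPM, counts relative to the library total as scaled by edgeR's TMM method. On the first principal component of the 1000 most variable genes (34.4% of variance) all 6 KO libraries lay between 19.0 and 30.6 and all 6 WT libraries between -60.2 and -10.3. HFD KO 1 and HFD WT 1 stood apart on the second (21.6% of variance), at -36.1 and -42.7. Genes of the small intestine (Sis, Fabp1, Fabp2, Apoa4, Rbp2 and Alpi, chosen after their values were seen) summed to 88.5, 171 and 199.5 CPM in STD KO 1, STD KO 3 and HFD KO 1 and to 111 CPM in HFD WT 1, but to 1.07 to 2.42 CPM in each of the other 8 libraries. Those 4 libraries are 3 of 6 KO and 1 of 6 WT, and none of the 6 genes was past the threshold. Results are therefore also given without HFD KO 1 and HFD WT 1, and without all 4.

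**Figure D1:**
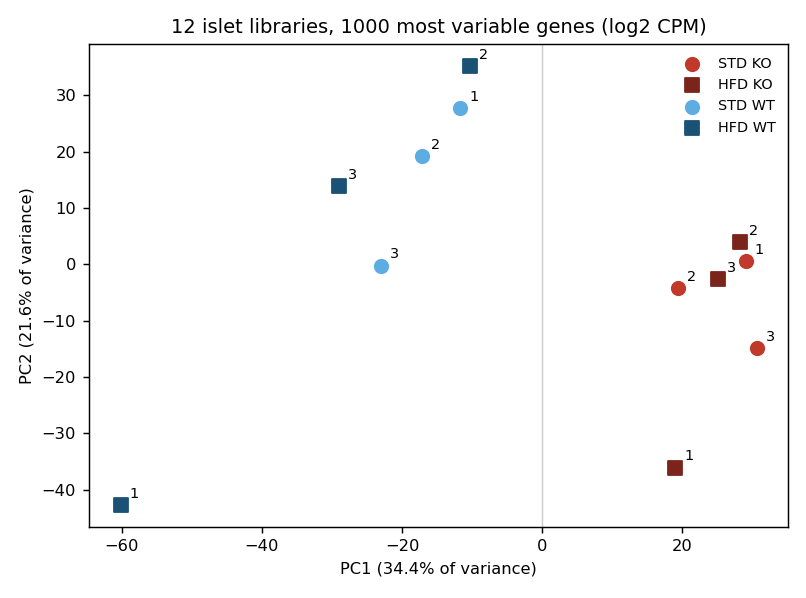
Principal components of the 12 islet libraries from log2 CPM of the 1000 most variable genes; circles are STD and squares HFD libraries, red is KO and blue WT, and numbers are replicates. All 6 KO libraries lie right of all 6 WT libraries on PC1 (34.4% of variance), and HFD KO 1 and HFD WT 1 lie lowest on PC2 (21.6%).

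The targeted gene was lower in most KO libraries. Sirt3 (ENSMUSG00000025486, mm10 chromosome 7, 140863666 to 140882309, minus strand) had 6.59, 5.97 and 5.86 CPM in STD KO and 7.85, 11.5 and 6.21 CPM in HFD KO, against 9.04, 11.3 and 11.5 CPM in STD WT and 11.4, 9.30 and 11.8 CPM in HFD WT. Only the library labelled HFD KO 2, at 11.5 CPM, lay inside the WT range, and the other 5 KO libraries lay below it. Over both diets it differed by -0.57 on the log2 scale (SE 0.16), with an adjusted p of 0.0598 in edgeR's quasi-likelihood test, just short of the threshold of 0.05. An exact permutation test of Sirt3 alone, with genotypes exchanged within each diet, gave a mean log2 difference of -0.58 and a two-sided p of 0.015, where 400 arrangements allow no p below 0.005. Without HFD KO 2 the log2 fold change was -0.72 (adjusted p = 0.0060 by edgeR; 0.0060 to 0.431 over the 25 alternatives). A beta cell selective deletion would leave the gene in the non-beta cells of the islet, but Sirt3 was not measured by cell type. In bulk islet RNA fewer cells of a type and less RNA per cell cannot be told apart. Of the 7 sirtuin genes, 0 were past the threshold in edgeR, 3 had an unadjusted p under 0.05, and DESeq2 and limma each called 1, lower in KO.

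Over both diets, 1142 of 16076 genes (7.10%) were past an adjusted p of 0.05 in edgeR's quasi-likelihood test, 621 higher in KO islets (3.86%) and 521 lower (3.24%). The rises were larger than the falls. Among genes past the threshold, 358 were more than 2-fold and 180 more than 4-fold higher, against 154 and 22 lower by as much; the median log2 fold change was 1.18 among the rises and -0.78 among the falls. All 6 KO libraries stood above all 6 WT libraries in 475 genes (2.95% of those tested) and below them in 381 (2.37%), and 443 and 326 of these were past the threshold. Protein-coding genes made up 1014 of the 1142. The share called ranged from 5.09% on chromosome 17 to 8.82% on chromosome 16. Within 10 Mb of Sirt3 on chromosome 7, 13 of 143 genes were called (9.09%). The count of calls was 726 without HFD WT 3, 666 without HFD KO 1 and HFD WT 1, and 464 without the 4 libraries with small intestine genes. The share of calls that were higher was 54.4% over all 12 libraries, 70.0% without HFD KO 1 and HFD WT 1, 67.0% without the 4, 71.3% without STD WT 3 and HFD KO 2, and 71.6% in limma on log2 FPKM, which scales to library totals. It was 51.6% in DESeq2 and 50% to 61.3% when 1 library was left out, lowest without STD WT 1 and highest without HFD KO 2.

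Among the rises, genes that respond to lactogens and STAT5 in islets stood out by count: 12 of 16 tested members rose and 0 fell. Of all tested genes, 3.86% rose and 3.24% fell. The median log2 fold change of the 16 was 2.18, beside -0.01 over all tested genes. The summed level of the list was 7175 to 11202 CPM in KO libraries and 1823 to 3394 CPM in WT libraries, so the groups did not overlap in this sum. Most of the sum came from 1 member, the granule protein gene Chgb, with 854990 counts over all libraries. The next largest, the prolactin receptor gene Prlr, had 87395. Without the 4 libraries with small intestine genes, 12 members again passed as higher; in DESeq2 10 were higher and 1, Ghr, lower, and 2 had no adjusted p. The list was put together with earlier results of these data known, so the count is a description.

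Promoters of 3 members that rose and of Prok1, 1 of the largest rises, are shown because they hold TTCNNNGAA, the spacing of the sequence that STAT proteins bind; capitals mark the matches. The pattern reads the same on both strands. It was present in 8.30% of 32851 promoter windows of 300 bases (250 before and 50 after the start, RefSeq, GRCm38.p6). The other shares are of genes with a window, where a gene counts if any of its windows holds the pattern. They were 8.39% of tested genes, 11.9% of 447 genes called higher and 4 of 11 genes of the lactogen list. The 4 were Cish, Ivd, Prlr and Socs3, of which Socs3 was not past the threshold. A match is a description of the letters and not a site. The Prlr window follows RefSeq's start, which lies inside the gene's span given below. The windows are those of Cish (chr9:107296409-107296708, plus strand), Ivd (chr2:118861744-118862043, plus strand), Prlr (chr15:10223656-10223955, plus strand) and Prok1 (chr3:107238603-107238902, minus strand).
Cish: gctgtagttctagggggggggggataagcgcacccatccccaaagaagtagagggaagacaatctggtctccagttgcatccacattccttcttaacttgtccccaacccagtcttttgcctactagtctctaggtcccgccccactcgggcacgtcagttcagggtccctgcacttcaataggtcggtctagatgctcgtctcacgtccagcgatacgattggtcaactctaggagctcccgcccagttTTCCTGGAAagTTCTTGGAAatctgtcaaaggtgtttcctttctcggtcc
Ivd: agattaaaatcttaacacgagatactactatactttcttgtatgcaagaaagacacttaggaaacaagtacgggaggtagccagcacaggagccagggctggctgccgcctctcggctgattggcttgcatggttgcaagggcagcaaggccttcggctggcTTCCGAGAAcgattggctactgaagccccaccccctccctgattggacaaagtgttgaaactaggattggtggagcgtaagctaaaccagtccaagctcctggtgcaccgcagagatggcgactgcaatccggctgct
Prlr: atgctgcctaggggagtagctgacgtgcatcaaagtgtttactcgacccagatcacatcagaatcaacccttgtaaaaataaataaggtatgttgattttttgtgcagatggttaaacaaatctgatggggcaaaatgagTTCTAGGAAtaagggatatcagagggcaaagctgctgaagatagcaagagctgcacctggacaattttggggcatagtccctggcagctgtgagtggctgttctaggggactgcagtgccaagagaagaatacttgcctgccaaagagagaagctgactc
Prok1: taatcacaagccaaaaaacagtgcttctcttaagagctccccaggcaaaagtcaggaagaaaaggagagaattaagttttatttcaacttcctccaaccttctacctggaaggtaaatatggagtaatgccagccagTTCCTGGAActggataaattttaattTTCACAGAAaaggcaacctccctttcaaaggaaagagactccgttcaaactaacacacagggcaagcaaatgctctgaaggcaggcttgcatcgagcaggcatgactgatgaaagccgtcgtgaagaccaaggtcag

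Among the signalling genes of this response, the receptor gene and the feedback genes Cish and Socs2 rose, while Socs3, also a feedback gene, and the STAT5 genes did not pass in edgeR; Prlr, Cish, Socs2 and Neb are described although the naming rule did not pick them, and were chosen after their values were seen. Prlr, the prolactin receptor gene (mm10 chromosome 15, 10177238 to 10349180, plus strand), had a lowest, median and highest value of 354, 604 and 812 CPM in KO and of 127, 201 and 269 CPM in WT libraries, with no overlap (log2 fold change 1.59, SE 0.21, adjusted p = 0.000538). Cish, a feedback inhibitor of cytokine receptors that STAT5 induces, had 62.9, 66.6 and 74.4 CPM in KO and 2.95, 4.33 and 24.4 CPM in WT. The KO libraries lay close together, while STD WT 3 alone set the WT maximum (log2 fold change 3.26, SE 0.46, adjusted p = 0.00094). Socs2, which dampens growth hormone signalling, had 86.8, 99.9 and 121 CPM in KO and 10.6, 13.8 and 30.3 CPM in WT (2.67, SE 0.22, adjusted p = 1.44e-05). Ghr, the growth hormone receptor gene, had a log2 fold change of -0.43 (adjusted p = 0.098), Stat5a -0.25 (0.440), Stat5b -0.20 (0.510) and Socs3 0.24 (0.723), all with overlapping groups.

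The other members that rose encode matrix, muscle, decoy receptor and granule proteins, and enzymes described with their pathways. Matn2, which encodes the matrix protein matrilin-2, had 207, 308 and 332 CPM in KO and 8.06, 11.2 and 27.3 CPM in WT (log2 fold change 4.51, SE 0.23, adjusted p = 3.19e-07). Neb, the gene for the giant actin-binding protein nebulin, had 31.2, 41.3 and 81.8 CPM in KO and 1.24, 1.51 and 4.57 CPM in WT (4.55, SE 0.39, adjusted p = 3.11e-05). Tnfrsf11b, the gene for the decoy receptor osteoprotegerin, had 72.1, 74.7 and 99.4 CPM in KO and 11, 16.7 and 22 CPM in WT (2.29, SE 0.16, adjusted p = 6.14e-06). None of these overlapped between genotypes. Chgb, which encodes the granule protein chromogranin B, had 4872, 5747 and 7764 CPM in KO and 1247, 1677 and 2477 CPM in WT (1.84, SE 0.20, adjusted p = 0.000103).

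The genes that start serotonin synthesis rose with this list, to which they also belong. Tph1 (mm10 chromosome 7, 46644641 to 46672537, minus strand) had 382, 595 and 390 CPM in STD KO and 1149, 701 and 825 CPM in HFD KO, against 1.33, 0.697 and 43.5 CPM in STD WT and 0.894 to 1.29 CPM in HFD WT. Every KO library was above every WT library, but STD WT 3, at 9.55% of the STD KO mean, was far above the other 5 WT libraries. Its log2 fold change reached 6.97 (SE 1.28, adjusted p = 0.00571 by edgeR), and 9.31 (adjusted p = 5.26e-08) without STD WT 3; the adjusted p was at most 0.0442 over the 24 alternatives that gave one. Tph2, the other tryptophan hydroxylase gene, had 19.2, 24.3 and 33.2 CPM in KO and 0.459, 0.670 and 3.62 CPM in WT (4.47, SE 0.48, adjusted p = 0.000145). Of the 9 serotonin genes tested, 2 rose and 0 fell in edgeR (median 0.47), and limma called 3, all higher. The share called by edgeR over all tested genes was 7.10%. Ddc, which makes serotonin from the product of tryptophan hydroxylase, had a log2 fold change of 0.00 (adjusted p = 0.995 by edgeR), the vesicle carrier gene Slc18a1 0.47 (0.121) and the breakdown genes Maoa 0.14 (0.656) and Maob -0.15 (0.596).

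The largest rises were in genes close to silent in WT islets; the rule that named them took only genes whose groups did not overlap. Syt10, which encodes a synaptotagmin, a calcium sensor of exocytosis, had 871 counts over the KO libraries and 2 over the WT libraries. The ratio was 457 (95% counting interval 126 to 3781). Ratios in this paragraph are of summed counts scaled to summed library totals, without TMM scaling. Lactbl1, a gene of the beta-lactamase-like family, had 681 and 2 counts (ratio 357, interval 98.6 to 2958). Each had 57 or more counts in every KO library. In all, 15 genes past the threshold and higher in KO had at most 3 counts over the 6 WT libraries. Among them, chosen after its values were seen, was Prl3d1, the gene for placental lactogen I, with 179 counts in KO (4 to 79 per library) and 1 in WT (ratio 188, interval 33.3 to 7463). Olfr324, an olfactory receptor gene, had 74 counts in KO (2 to 24 per library) and 0 in WT. It was 25.9-fold higher when 3 counts over the 6 WT libraries are taken as the floor. The lower end of its 95% counting interval, with 0 WT counts, was 20.5-fold. Counting intervals do not cover the spread between libraries.

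Others of the largest rises encode a secreted ligand, receptors, channels and enzymes. Prok1, the gene for the secreted ligand prokineticin 1 whose promoter is shown above, had 15.5, 20 and 21.4 CPM in KO and 0, 0.0584 and 0.613 CPM in WT (log2 fold change 7, SE 0.50, adjusted p = 6.25e-06). Gpr26, an orphan receptor gene, had 24.4, 27.3 and 35.8 CPM in KO and 0, 0 and 1.34 CPM in WT (6.95, SE 0.74, adjusted p = 0.000139). Gad2, which encodes a glutamate decarboxylase that makes GABA, had 2, 7.97 and 10.8 CPM in KO and 0, 0.0585 and 0.390 CPM in WT (6.23, SE 0.62, adjusted p = 6.47e-05). In all 3 the highest WT value was that of STD WT 3. Kcnj5, a gene for a G protein-gated inward rectifier potassium channel, had 10.1, 19.1 and 31.8 CPM in KO and 0.0536, 0.144 and 1.45 CPM in WT (5.89, SE 0.49, adjusted p = 1.98e-05). Dnah8, an axonemal dynein heavy chain gene, had 121, 185 and 239.9 CPM in KO and 0.858, 2.20 and 7.80 CPM in WT (6.07, SE 0.44, adjusted p = 8.09e-06). Here too every KO library was above every WT library. The others of the 12 largest were Lrrc55, Rph3a, Syndig1 and Gstt4, with log2 fold changes of 6.23, 6.13, 5.86 and 5.81.

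**Figure D2:**
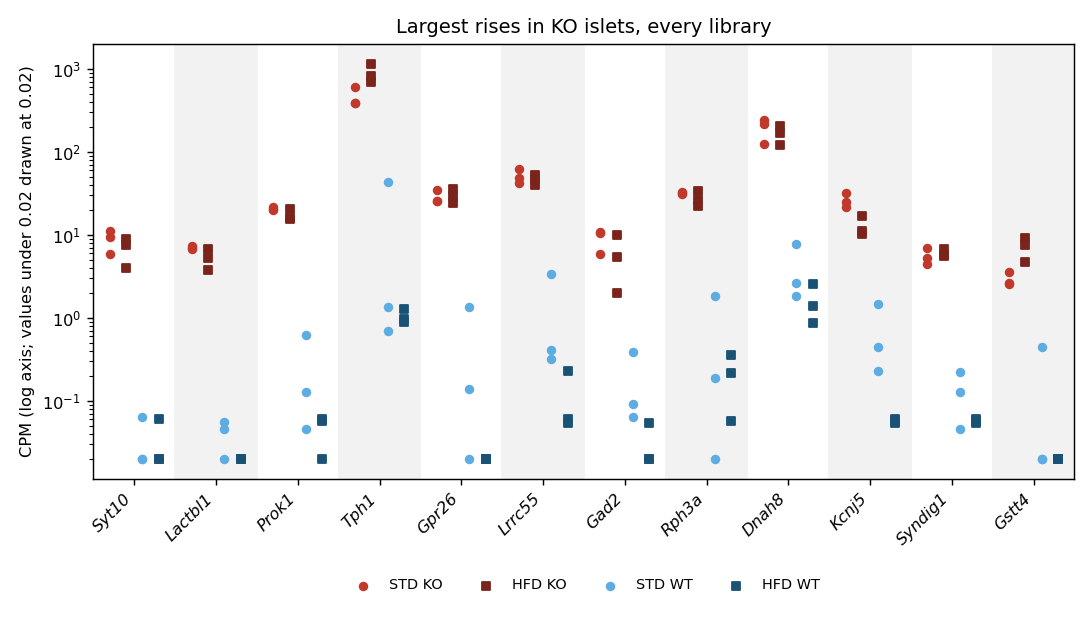
Level in every library (CPM, log axis, values under 0.02 drawn at 0.02) of the 12 genes with the largest rises; red is KO and blue WT, circles STD and squares HFD. STD WT 3 is the highest WT point in 11 of the 12 genes, including Tph1 at 43.5 CPM, and still lies below every KO point.

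STD WT 3 stood apart from the other WT libraries in these genes. It was the highest WT library in 84 of the 180 genes more than 4-fold higher in KO (46.7%), where the other 5 WT libraries were highest in 6.11% to 15%. Its level was 0% to 15.5% of the STD KO mean over the 12 largest rises. What sets this library apart was not tested. Without STD WT 3 and HFD KO 2, 83 of the 92 named genes past the threshold stayed past it in the same direction.

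Several of the rises with the smallest p-values were in genes that WT islets also expressed, while others, such as Lactbl1, were close to silent in WT. Mctp1, which encodes a membrane protein with calcium-binding C2 domains, had 33.0, 38.2 and 55.4 CPM in KO and 4.37, 5.12 and 5.78 CPM in WT (log2 fold change 3.02, SE 0.12, adjusted p = 5.3e-08). Srbd1, the gene for a protein with an S1 RNA-binding domain, had 81.3, 109 and 126 CPM in KO and 11.7, 13.9 and 15.2 CPM in WT (2.96, SE 0.12, adjusted p = 5.3e-08). Fmo1, a flavin monooxygenase gene, had 209.7, 236 and 309.6 CPM in KO and 7.51, 14.3 and 25.2 CPM in WT (4.06, SE 0.18, adjusted p = 1.2e-07). In each the lowest KO library was several-fold above the highest WT library. Enpp2, which encodes autotaxin, the secreted enzyme that makes lysophosphatidic acid, had 515, 763 and 871 CPM in KO and 64.6, 95.4 and 148 CPM in WT (2.91, SE 0.16, adjusted p = 4.6e-07). B3galnt1, a glycosyltransferase gene, and Washc5, which encodes a subunit of the endosomal WASH complex, rose by less, with log2 fold changes of 2.50 and 1.78. These genes stood past the threshold in every alternative that gave a value.

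The falls were smaller. Tmem179, a transmembrane protein gene, fell the most of those named: it had 1.29, 2.15 and 2.62 CPM in KO and 9.18, 14.0 and 28.3 CPM in WT (log2 fold change -2.97, SE 0.30, adjusted p = 5.95e-05). Sgcz, the gene for zeta-sarcoglycan, had 0.979, 1.24 and 1.51 CPM in KO and 4.41, 6.12 and 8.96 CPM in WT (-2.36, SE 0.21, adjusted p = 2.3e-05). Vsnl1, which encodes a neuronal calcium sensor, had 3.96, 5.93 and 9.87 CPM in KO and 12.9, 25.3 and 32.6 CPM in WT (-1.96, SE 0.16, adjusted p = 1.44e-05). None of these overlapped between genotypes. Trpc4, a gene for a calcium-permeable cation channel, had 1.92, 2.17 and 3.88 CPM in KO and 7.48, 11.6 and 15.1 CPM in WT (-2.25, SE 0.25, adjusted p = 0.000126). Tnr, which encodes the matrix protein tenascin-R, had 32.8, 63.5 and 83.8 CPM in KO and 174, 241.2 and 309 CPM in WT (-1.95, SE 0.23, adjusted p = 0.000246). Among the other named falls were Rasd2, a small GTPase gene (-2.47), Dok7, an adaptor gene of the neuromuscular junction (-2.04), the VIP and PACAP receptor gene Vipr2 (-1.80), Fgf1 (-1.50) and the sodium pump regulator gene Fxyd6 (-1.32). STD WT 1 was the lowest WT library in 71 of the 154 genes more than 2-fold lower (46.1%).

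**Figure D3:**
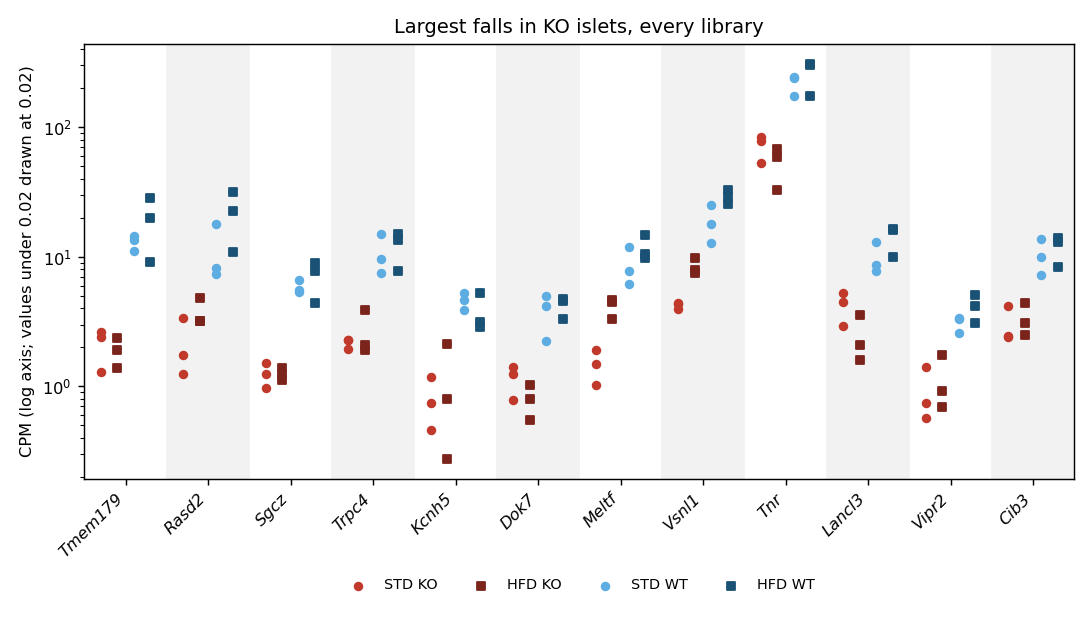
Level in every library (CPM, log axis) of the 12 genes with the largest falls; red is KO and blue WT, circles STD and squares HFD. Every KO point lies below every WT point of the same gene, as the rule that named them requires, and the KO values of Tmem179 lie between 1.29 and 2.62 CPM against 9.18 to 28.3 CPM in WT.

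Of 28 genes of beta cell identity, 8 fell and 1 rose (median log2 fold change -0.28), where 3.24% of all tested genes fell and 3.86% rose. Within STD 1 member was called lower and 0 higher (median -0.13), and within HFD 7 lower and 1 higher (median -0.47). The shares called over all tested genes were 1.71% within STD and 7.40% within HFD. The falls over both diets were in genes of nutrient sensing and secretion and in some transcription factors. Ffar1, the gene for the fatty acid receptor GPR40, had 61.0, 86.3 and 103 CPM in KO and 146, 175 and 207 CPM in WT (-1.06, SE 0.14, adjusted p = 0.000587). Trpm5, a cation channel gene, had 51.6, 88.4 and 111 CPM in KO and 141, 190.4 and 240.4 CPM in WT (-1.19, SE 0.19, adjusted p = 0.00215). Slc30a8, which encodes the zinc transporter of the insulin granule, had 476, 485 and 530.0 CPM in KO and 634, 881 and 1076 CPM in WT (-0.79, SE 0.13, adjusted p = 0.00221). The groups did not overlap in these genes. Mlxipl, the gene for the glucose-responsive factor ChREBP (-0.84), the maturity marker Ucn3 (-0.80), the endoplasmic reticulum oxidase gene Ero1lb (-0.64) and the transcription factor genes Foxa2 (-0.63) and Rfx6 (-0.49) fell as well. Pcsk1, which encodes the prohormone convertase that cuts proinsulin, rose, with 932, 981 and 1792 CPM in KO and 418, 552 and 649.7 CPM in WT (1.06, SE 0.19, adjusted p = 0.00351). Without the 4 libraries with small intestine genes, 1 member fell, Ffar1 (-1.11, adjusted p = 0.0197 by edgeR), and 1 rose, Pcsk1 (1.05, adjusted p = 0.0370); Trpm5, Slc30a8 and Mlxipl then had adjusted p-values of 0.0945, 0.103 and 0.152. Slc2a2, the glucose transporter gene, stood next to the threshold, with a log2 fold change of -0.76 and an adjusted p of 0.0522.

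The hormone genes themselves did not pass. Ins1 had 57077, 85575 and 131693 CPM in KO and 60532, 73074 and 90450.3 CPM in WT (log2 fold change 0.27, SE 0.22, adjusted p = 0.553). Ins2 had 115566, 172186 and 207699 CPM in KO and 172322, 225988 and 284392 CPM in WT (-0.44, SE 0.20, adjusted p = 0.256). Both overlapped between genotypes. Gcg, the glucagon gene of alpha cells (-0.06), Sst, the somatostatin gene of delta cells (0.02), and Ppy, the pancreatic polypeptide gene (0.04), were as far from the threshold (adjusted p = 0.924, 0.970 and 0.965), and the sign of each turned under some alternatives. Mafa, the transcription factor gene of mature beta cells, had -0.22 (adjusted p = 0.432) and Aldh1a3, a marker of dedifferentiation, -0.70 (0.407). Of 13 genes of dedifferentiation and disallowed genes, 0 rose and 1 fell, the progenitor factor gene Neurog3 (-0.80, SE 0.21, adjusted p = 0.0341), which lost the threshold in 9 of the 12 fits that left out 1 library. That count, 1 of 13, is near the 7.10% called over all tested genes.

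Granule and exocytosis genes moved in both directions: of 24 tested, 2 rose (Chgb and Rph3a, which encodes a Rab3 effector) and 4 fell (median -0.18), but without the 4 libraries with small intestine genes 3 rose and 0 fell. Scg2, the gene for secretogranin II, had 4520.5, 4847 and 6148 CPM in KO and 6217, 7727 and 10164 CPM in WT (-0.62, SE 0.15, adjusted p = 0.0297), and lost the threshold in 9 of the 12 fits that left out 1 library. The calcium channel gene Cacna1c (-0.82), the calcium sensor gene Syt7 (-0.58) and the priming factor gene Unc13a (-0.43) fell, and Cacna1c lost the threshold in 6 of those 12 fits. Of the 9 GABA genes, 1 rose, Gad2, and 1 fell, Gad1 (-0.65, SE 0.18, adjusted p = 0.0481), which encodes the other glutamate decarboxylase. Gad1 had 43.5, 57.8 and 70.1 CPM in KO and 56.7, 84.7 and 114 CPM in WT, with overlap, and also lost the threshold in 9 of 12 such fits. The granule and GABA lists, too, are read against the 7.10% of all tested genes that were called.

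Lists around the known work of the SIRT3 protein are read against the 7.10% of all tested genes that were called. Of 18 genes of SIRT3 substrates 1 rose, Pycr1, which encodes a mitochondrial enzyme of proline synthesis (0.80, SE 0.12, adjusted p = 0.00138), and 0 fell (median -0.13). Of 20 genes of the tricarboxylic acid cycle and pyruvate entry 0 were called in edgeR (median -0.01), with 4 at an unadjusted p under 0.05, 1 call in DESeq2 and 1 in limma. Of 12 mitochondrially encoded mRNAs 0 were called by any of these tools, and 0 had an unadjusted p under 0.05 (median 0.08). Of 68 nuclear-encoded respiratory chain genes 0 were called in edgeR (7 at an unadjusted p under 0.05; 1 call in DESeq2 and 2 in limma), and 61 had a positive log2 fold change (median 0.22). These genes are short (median 699.5 bases), the median was -0.06 within STD and 0.50 within HFD, and it was 0.04 with offsets corrected for gene length. Across the 16076 genes, the log2 fold change and gene length had a Spearman rho of -0.26 (-0.05 within STD and -0.31 within HFD). The part of gene length in these shifts was not tested further.

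Some single genes for enzymes of fuel use rose. Their lists are read against the 7.10% called over all tested genes, whose median log2 fold change was -0.01. Of 18 genes of branched-chain amino acid catabolism 2 rose and 0 fell in edgeR, and DESeq2 and limma each called 3, all higher. Ivd, the isovaleryl-CoA dehydrogenase of leucine breakdown, had 258, 290.1 and 318 CPM in KO and 59.8, 67.2 and 86.9 CPM in WT (2.07, SE 0.11, adjusted p = 3.19e-07). Bcat1, the cytosolic aminotransferase gene that begins the pathway, had 19.1, 33.0 and 49.3 CPM in KO and 1.32, 2.65 and 5.74 CPM in WT (3.64, SE 0.35, adjusted p = 5.77e-05), and the list's median was -0.02. Of 21 genes of fatty acid oxidation 2 rose and 0 fell in edgeR (median -0.02), and limma called 3, all higher. Ehhadh, a peroxisomal enzyme gene of beta-oxidation, had 64.6, 73.3 and 104 CPM in KO and 15.4, 19.3 and 25.5 CPM in WT (1.95, SE 0.14, adjusted p = 6.25e-06), and Hadhb, a subunit gene of the mitochondrial trifunctional protein, had a log2 fold change of 0.32 (SE 0.08, adjusted p = 0.0360) and lost the threshold in 8 of the 12 fits that left out 1 library. Of 23 antioxidant genes 20 had a positive log2 fold change (median 0.29). The list's median was 0.05 within STD and 0.51 within HFD, and its genes had a median length of 1172 bases. Of these genes edgeR called 1, with 8 at an unadjusted p under 0.05, DESeq2 5 and limma 6, all higher. The gene edgeR called was Txnrd2, the mitochondrial thioredoxin reductase gene, with 16.6, 22.1 and 29.5 CPM in KO and 7.98, 9.14 and 10.4 CPM in WT (1.30, SE 0.15, adjusted p = 0.000183).

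Of 16 genes of fatty acid synthesis 3 fell and 0 rose in edgeR (median -0.37), while DESeq2 called 5 lower and 1 higher. The 3 were Scd2, a desaturase gene (-1.16, SE 0.19, adjusted p = 0.0024), Mlxipl, and Srebf1, the gene for the lipogenic factor SREBP1 (-0.73, SE 0.19, adjusted p = 0.0354), which lost the threshold in 7 of the 12 fits that left out 1 library. Of these, Scd2 alone stayed past it without the 4 libraries with small intestine genes. The list's median was 0.01 within STD and -0.67 within HFD. Of 22 genes of cholesterol synthesis and uptake 2 rose, the late pathway enzyme genes Dhcr7 (0.69) and Ebp (0.54), and 2 fell, among them the sterol sensor gene Insig1 (-0.61). Over the 25 alternatives, Insig1 lost the threshold in 4, Ebp in 1 and Dhcr7 in 0. Of 25 stress response genes (unfolded protein and integrated stress) 2 rose and 0 fell in edgeR (median 0.31), 23 had a positive log2 fold change and 12 an unadjusted p under 0.05, and DESeq2 called 5 and limma 7, all higher. The 2 were Edem1, which helps clear misfolded glycoproteins (0.72, SE 0.11, adjusted p = 0.00159), and the stress kinase-like gene Trib3 (1.14, SE 0.26, adjusted p = 0.0170). Each of the 2 lost the threshold in 1 of the 25 alternatives. Their log2 fold changes there ranged from 0.63 to 0.79 for Edem1 and from 0.98 to 1.42 for Trib3. Of 33 cell cycle genes the mitotic kinase gene Aurka (0.75), the CDK inhibitor gene Cdkn1a (0.70) and the transcription factor gene E2f1 (0.68) rose, and the cyclin gene Ccnd1 (-0.86) fell. Aurka lost the threshold in 1 of 25 alternatives, and Cdkn1a, E2f1 and Ccnd1 in 2 each. Of 17 clock genes 1 fell, the repressor gene Nr1d1 (-0.81, adjusted p = 0.0190 by edgeR). Nr1d1 lost the threshold in 7 of 25 alternatives, both limma fits among them. Counts of calls in these lists are read against the 7.10% called over all tested genes.

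Guanylate-binding proteins, GTPases best known from interferon responses, rose in part of the family. Of 10 tested genes 5 rose and 0 fell (median 1.18), and their summed level was 103 to 175 CPM in KO and 19.5 to 57.7 CPM in WT libraries. Over all tested genes 7.10% were called, 3.86% as higher. Gbp8 had 35.3, 61.6 and 97.4 CPM in KO and 1.07, 2.39 and 3.68 CPM in WT (4.66, SE 0.36, adjusted p = 1.39e-05), and Gbp11 5.47, 8.02 and 10.4 CPM in KO and 0, 0.0757 and 0.780 CPM in WT (5.58, SE 0.69, adjusted p = 0.000352). Neither overlapped between genotypes. Gbp10, Gbp4 and Gbp9 rose with log2 fold changes of 2.80, 1.51 and 1.51. These genes are close paralogs, and Gbp8 and Gbp4 overlap in position on 1 strand, so their counts are uncertain. Of 22 interferon response genes, 4 of which are also in this family, 1 rose, Usp18, which removes the ubiquitin-like protein ISG15 (0.90, SE 0.12, adjusted p = 0.000383; list median 0.25).

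Markers of other cell types were measured beside these results. Their counts of calls, too, are read against the 7.10% called over all tested genes. Of 22 macrophage and myeloid markers 5 rose and 0 fell (median 0.51): the complement genes C1qb (0.74) and C1qc (0.89), Fcer1g (0.64), Adgre1, which encodes the macrophage surface protein F4/80 (0.83), and Ms4a7 (0.92). In the 12 fits that left out 1 library, Fcer1g lost the threshold in 8 and Adgre1 in 9, while DESeq2 called 9 of the markers and limma 6, all higher. C1qb had 20.7, 27.5 and 43.8 CPM in KO and 13, 17.1 and 19.7 CPM in WT (SE 0.15, adjusted p = 0.0107). The summed level of the list overlapped, at 990.9 to 1936 CPM in KO and 467 to 2500 CPM in WT libraries, and 0 of its members were called without the 4 libraries with small intestine genes. Of 15 lymphocyte markers 0 were called (summed level 1513 to 3821 CPM in KO and 160.1 to 3943 CPM in WT, lowest in HFD WT 1), of 21 acinar genes 0 (11745 to 31133 CPM in KO and 7525 to 42258 CPM in WT, lowest in STD WT 3), of 12 endothelial genes 0 and of 18 stellate and fibroblast genes 0 (median 0.49). DESeq2 and limma called 0 in these lists as well, and only the stellate list held a gene at an unadjusted p under 0.05, namely 1. Of 12 ductal genes 1 rose, the chloride channel gene Cftr (1.98, SE 0.50, adjusted p = 0.0364), which lost the threshold in 8 of the 12 fits that left out 1 library. Of 6 Schwann cell and neuron genes 2 rose, Ngfr, the low-affinity neurotrophin receptor gene (3.23, SE 0.28, adjusted p = 1.98e-05), and the ubiquitin hydrolase gene Uchl1 (0.96, SE 0.17, adjusted p = 0.00349), while the myelin gene Mbp (0.02) did not pass. Of 13 alpha cell genes 1 rose and 2 fell, Dpp4 (-0.82) and Slc7a2 (-0.81), of which Slc7a2 lost the threshold in 7 of the 12 fits. Of 19 genes of glycolysis and hypoxia 1 rose, Pfkp (0.49), which lost the threshold in 9 of those 12 fits, and limma called 0 (4 at an unadjusted p under 0.05 in edgeR). The lists of delta, PP and epsilon cells, immediate early genes, cytokine response, adipocytes and erythrocytes held 0 calls in edgeR, with 1, 0, 3, 1 and 0 genes at an unadjusted p under 0.05; DESeq2 called 2 cytokine genes and 1 adipocyte gene, and limma 0 in these 5 lists. The part of these cells in the results was not tested.

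**Figure D4:**
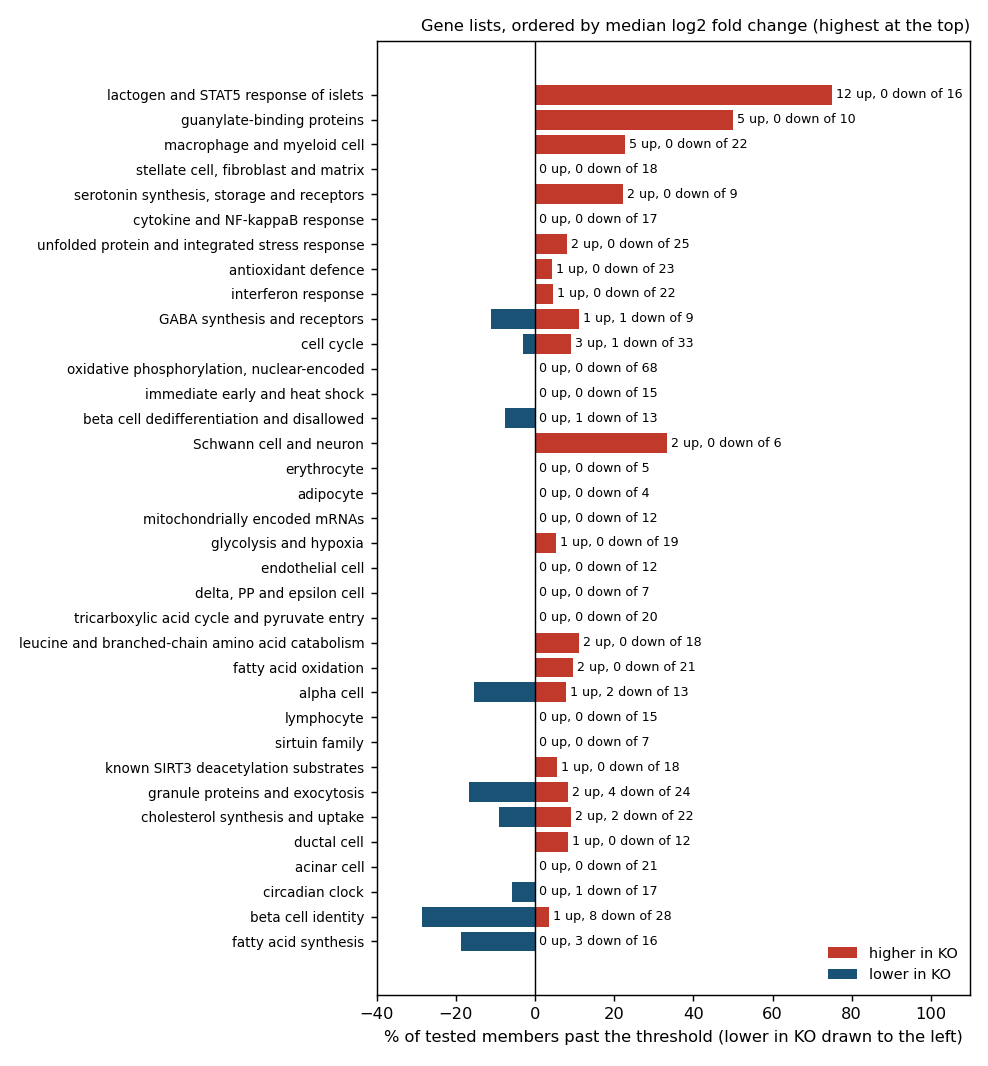
Share of the tested genes of each of the 35 lists past an adjusted p of 0.05 (%), higher in KO to the right and lower in KO to the left, ordered by median log2 fold change with the counts beside each bar. The lactogen and STAT5 list stands at 12 of 16 higher, and beta cell identity at 8 of 28 lower; over all tested genes 3.86% were higher and 3.24% lower.

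Pooling the diets found genes that neither diet alone did. Within STD, 275 genes were called (1.71%; 216 higher and 59 lower), and within HFD 1189 (7.40%; 627 higher and 562 lower). Of the 1142 genes of the pooled comparison, 251 were called in each diet, 22 in STD alone, 552 in HFD alone and 317 in neither (148 higher and 169 lower, median absolute log2 fold change 0.66). A further 388 genes were called within a diet and not over both, 386 of them in HFD. All 1142 had the same sign in both diets, which the pooled test favours by its construction, and the effect was larger in HFD in 900 (78.8%). Across the 16076 genes, the log2 fold changes of the 2 diets, which share no library, had a Pearson r of 0.54 and a Spearman rho of 0.34, given as a description because genes are not independent. The test of the difference between the diets called 0 genes in edgeR (0.00%), with 1271 at an unadjusted p under 0.05, 0 in limma and 31 in DESeq2.

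**Figure D5:**
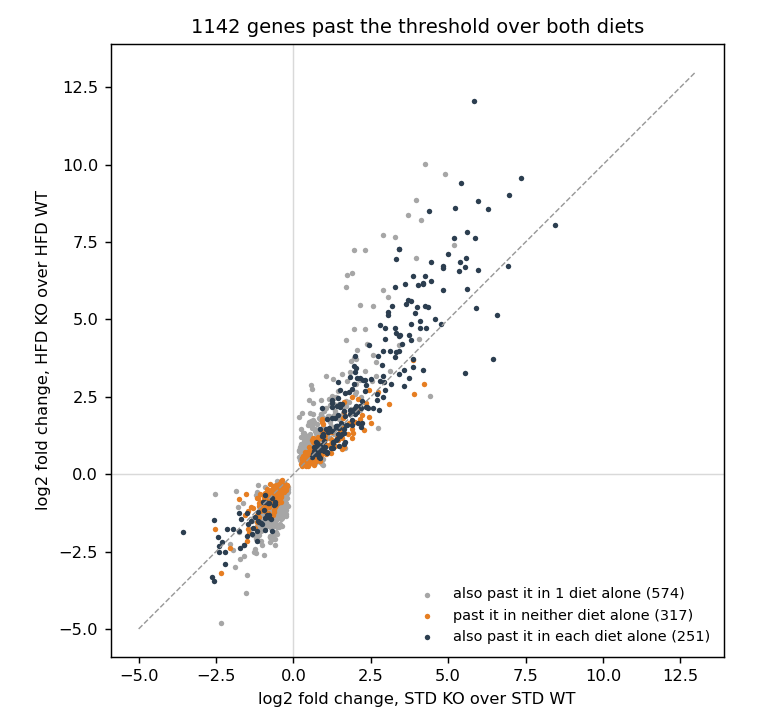
Fitted log2 fold change of KO over WT within STD (x axis) and within HFD (y axis) of the 1142 genes past the threshold over both diets, coloured by the diets in which they also passed alone (251 in each, 22 in STD and 552 in HFD alone, 317 in neither); the dashed line marks equal effects. All points lie in the quadrants of equal sign, and 900 of 1142 have the larger effect in HFD.

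The 8 genes with the smallest p-values among the 317 had adjusted p-values of 0.0556 to 0.149 within STD and of 0.0505 to 0.0714 within HFD. Inava, the innate immunity activator gene, had 2.04, 2.88 and 3.81 CPM in KO and 5.63, 6.65 and 15.2 CPM in WT; its log2 fold change was -1.45 (SE 0.25, adjusted p = 0.0031), beside -1.57 within STD (adjusted p = 0.0590) and -1.32 within HFD (0.0505). Cd44, the hyaluronan receptor gene, had 31.1, 35.9 and 49.7 CPM in KO and 50.3, 65.7 and 89.7 CPM in WT (-0.85, SE 0.15, adjusted p = 0.00382), beside -0.93 and -0.77 within STD and HFD. Scn9a, a voltage-gated sodium channel gene, had 39.7, 88.9 and 91.0 CPM in KO and 23.2, 29.9 and 38.4 CPM in WT (1.29, SE 0.23, adjusted p = 0.00386), beside 1.40 and 1.17. All 6 KO libraries lay on 1 side of all 6 WT libraries in each of these. Capn9, a calpain protease gene (1.10), Igsf5 (0.90), Tmem189 (0.51), the corepressor gene Rcor3 (-0.47) and the transcription elongation factor gene Mllt3 (-0.47) made up the 8. Of the 8, only Capn9 stayed past the threshold without the 4 libraries with small intestine genes.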

How the data were processed

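Islet RNA of 12 libraries in 4 groups of 3 was measured by RNA-seq. Per the labels, the authors deposited for each library a table of read counts per gene together with FPKM (reads scaled to gene length and library total). TopHat2, Cufflinks, DESeq and the mm10 build are named per the submitters' processing notes; versions, roles, the counting tool, the annotation release and strand setting were not stated in the sources read. All 257939 FPKM values compared equalled count over gene length and library total (relative tolerance 1e-04), so they carry no further normalization.

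Counts as deposited were tested with edgeR 4.0.16 in R 4.3.3: TMM scaling, genes kept by filterByExpr (minimum count 10, total 15), a robust quasi-likelihood fit with diet and genotype as terms, and Benjamini-Hochberg adjustment over 16076 genes (threshold 0.05). Within-diet and interaction contrasts came from a fit with 1 mean per group. Unless another setting is named, values in parentheses after a gene are log2 fold changes (KO over WT) with SE and adjusted p. They come from the fit with diet and genotype as terms. Gene names came from GENCODE (54409 of 54532 IDs matched). On simulated data of this design, 93 of 100 genes changed 4-fold and 61 of 100 changed 2-fold were recovered among 16076. The changed genes were drawn from those with a mean of at least 2 CPM. Counts were drawn independently for each library, with no unusual library built in, so recovery in the real data may differ. DESeq2 1.42.0, limma 3.58.1 on log2(FPKM + 1) or log2(FPKM + 0.1), other filters and scalings, a replicate block and left-out libraries were alternatives.

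Always named were 10 genes: Sirt3, Ins1, Ins2, Gcg, Sst, Ppy, Mafa, Slc2a2, Aldh1a3 and Tph1. Added to them were the 12 largest changes per direction among called genes with no overlap and a mean CPM of 2 or more. So were the 10 smallest p-values per direction and 8 genes called in neither diet alone. Each of 35 lists gave up to 4 called genes, or the 2 smallest p-values where none was called. The members and lists were chosen with earlier results of these data known. Chi-square values between the 12 pairs of libraries within a group (27.1 to 106.6 per degree of freedom) showed none that agreed within sampling noise; pairs across groups were not compared. Same-numbered KO and WT libraries deviated together in HFD (r = 0.51, 0.41 and 0.34) but not in STD (-0.00, -0.17 and -0.23). In STD, some libraries of unlike number deviated together as well, up to r = 0.37 for STD KO 2 and STD WT 3. Other unlike-numbered STD pairs went as low as -0.22 (STD KO 2 and STD WT 1). No label states a pairing, and these correlations cannot decide whether the numbers pair samples in either diet. Intervals and floors (95%, 3 counts) cover counting error only, since reads without molecular identifiers are not independent molecules. A few genes counted in the lists are not reported here by name.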

Additional observations from a re-analysis of the deposited data

Results flagged for a closer look

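Across 252 sets of 6 libraries (126 named genes in each genotype), 27 had 1 library farther from the rest than Dixon's criterion allows; chance alone gives about 1 in 20. STD WT 3 was the library in 14 of them, always as the highest WT value: Tph1 at 43.54 CPM (median of the other WT libraries 0.972), Dnah8 at 7.796 (1.838), Cxcl2 at 7.907 (1.926), Bcat1 at 5.735 (2.568), Aurka at 3.898 (3.202), Tph2 at 3.619 (0.5365), Lrrc55 at 3.341 (0.2287), Rph3a at 1.838 (0.1901), Kcnj5 at 1.448 (0.05961), Gpr26 at 1.336 (0), Gbp11 at 0.7796 (0.05961), Prok1 at 0.6125 (0.05718), Gstt4 at 0.4455 (0) and Gad2 at 0.3898 (0.05363). All but Cxcl2 of these genes rose in KO.

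Among the KO libraries, HFD KO 2 had the highest Sirt3, at 11.53 CPM (median of the others 6.209), the highest Ppy at 4341 (1262) and mt-Co2 at 14.36 (4.317), and the lowest Flt1 at 41.5 (84.37). HFD KO 1 had the highest Pcsk1 at 1792 (977.2), Ehhadh at 103.7 (69.0) and mt-Nd3 at 29.98 (16.02). HFD KO 3 had the highest Cd44 at 49.72 (34.19) and Trpc4 at 3.88 (2.072). Among the other WT libraries, STD WT 1 had the highest Inava at 15.23 (6.515) and Ccnd1 at 98.43 (66.23), STD WT 2 the highest Lpl at 286.1 (152.8), and HFD WT 1 the highest Hbb-bt at 10.62 (4.829).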

How the results depend on the processing

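The 1142 calls over both diets were 1601 in DESeq2, 1049 and 1042 in limma, 983 with no filter and 1238 with offsets corrected for gene length; leaving out 1 library gave 726 to 1128, lowest without HFD WT 3. Without HFD KO 1 and HFD WT 1 they were 666, and without STD KO 1, STD KO 3, HFD KO 1 and HFD WT 1 (STD KO then has 1 library, assumed to vary like the others) 464, of which 420 were among the 1142; both choices followed sight of the data. Within STD, the 275 calls were 484 in DESeq2, 146 to 296 with 1 library out and 36 without those 4. Within HFD, the 1189 were 2033 in DESeq2, 745 without STD WT 3 and HFD KO 2, 315 without HFD KO 1 and HFD WT 1, 99 without the 4, and 519 to 2899 with 1 library out (without HFD KO 1 and without HFD KO 3). The interaction gave 31 calls in DESeq2 and 1 with no filter. Fewer samples were fitted in the left-out settings; otherwise the cause was not tested.

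Sirt3 passed the threshold in DESeq2 (-0.56, adjusted p = 0.0288), in limma (-0.45 and -0.51), with length offsets (-0.61) and without STD WT 3 and HFD KO 2 (-0.64), and ranged from -0.72 to -0.50 with 1 library out. The sign turned for 4 genes that were not called: Flt1 (0.031 without STD WT 3 and HFD KO 2), Gcg (-0.22 to 0.057 with 1 library out, 0.032 without the 4), Ppy (-0.37 to 0.27; -0.14 without STD WT 3 and HFD KO 2, -0.18 with length offsets, -0.11 without the 4) and Sst (-0.14 to 0.13; -0.017 with the replicate block, -0.081 without STD WT 3 and HFD KO 2, -0.14 with length offsets). Of the 92 named genes past the threshold, 0 turned; 77 to 87 stayed past it with 1 library out and 56 without the 4.

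With a replicate block (1 for each diet and number), 1291 genes were called within HFD (624 higher and 667 lower), 924 over both diets, 227 within STD and 0 in the interaction, and Sirt3 was at -0.59 (adjusted p = 0.121). Genes under the count filter were not tested, and near-silent genes rest on 0 to 3 WT counts.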

Other observations

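The share of called genes that were higher in KO differed with level: it was 79.2% of 101 called genes under a mean of 1 CPM, 59.4% of 347 between 1 and 10 CPM, 46.9% of 597 between 10 and 100 CPM and 56.7% of 97 above 100 CPM. The share of tested genes called was 6.06%, 6.72%, 7.49% and 7.596% in the same order. Genes called higher had a median length of 1776 bases, genes called lower 2180 bases, and all tested genes 1799 bases.

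The 13 genes called within 10 Mb of Sirt3 on chromosome 7 were Gpr26, Cpxm2, Abraxas2, Dhcr7, Nkx6-2, Trpm5, Th, Pgghg, B4galnt4, Eps8l2, Ccnd1, Inpp5a and Ifitm1, of which 6 were higher and 7 lower in KO; they were named after their values were seen. Within 20 Mb, 19 of 285 genes were called (6.67%), against 7.10% of all genes tested.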
